A study of Mus musculus with 20 samples.

Results

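Mx1, Mx2, Bst2, Trim12a, Trim30a, Trim30d and Trim34a are 7 interferon-inducible mouse genes for antiviral restriction factors and their close relatives, out of 19938 genes named on these arrays. Each was taken as the probe set whose annotation names that symbol alone, and where a symbol had several probe sets the one with the highest mean over all arrays would have been kept. Each of the 7 had exactly 1 such probe set, so the rule selected on the symbol only. The 7 genes were chosen with earlier results of these data known, in which Mx1, Mx2 and Trim12a had already been singled out for their differences between strains. Their strain differences are therefore given as a description, without p-values. Those of Trim30d are given in the same way, since it was measurable in 1 strain only. The differences of Bst2, Trim30a and Trim34a carry the adjusted p of the fit over all genes, but are not independent evidence.

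Liver RNA of 20 male mice was measured on whole-transcript microarrays, 1 array per animal, with 5 animals in each of 4 strains. The strains were NZO/Hl (NZO), which serves as a model of obesity and diabetes, C3H, 129P2/OlaHsd (129P2) and C57/Bl6 (B6). All animals were 6 weeks old and, from weaning at 21 days, had been fed a diet with 45% of its calories from fat, so no group was on another diet. No infection and no interferon treatment is named for any group. B6 is taken here as the strain that the others are set against, and every difference is the first named strain minus the second. Albumin, the main secreted protein of hepatocytes, had a mean of 14.28 in NZO, 14.31 in C3H, 14.27 in 129P2 and 14.26 in B6 (log2). The mean of 7 hepatocyte markers, albumin among them, was 13.44 in NZO, 13.53 in C3H, 13.49 in 129P2 and 13.56 in B6. Not all were level, as Fabp1 had 12.81 in NZO, 13.24 in C3H, 13.14 in 129P2 and 13.15 in B6.

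Mx proteins are large dynamin-like GTPases that assemble around viral nucleocapsids; in mice, Mx1 acts in the nucleus against influenza viruses and Mx2 in the cytoplasm against other RNA viruses. Many laboratory strains, C57BL/6 among them, are known to carry Mx alleles that encode no working protein. Bst2, also called tetherin, is a membrane protein that holds newly budded enveloped virus particles on the cell surface. Trim proteins carry a RING ubiquitin ligase domain. Trim12a, Trim30a and Trim30d are rodent relatives of Trim5, the primate factor that binds retroviral capsids, and in mouse cells Trim30a also restrains signalling to NF-kappaB. Trim34a belongs to the same gene cluster. Type I interferon induces these genes through the ISGF3 complex, which binds the interferon-stimulated response element (ISRE) in their promoters.

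The promoters are shown first because the choice by symbol did not use them. As the 7 are known as interferon-inducible genes, an ISRE in their promoters is no separate evidence. RefSeq promoters (GRCm38.p6, from 250 bases before to 50 after a gene's start) were at hand for 5 of the 7 genes, Bst2, Trim12a, Trim30a, Trim30d and Trim34a. They were searched on both strands for the ISRE core GAAANNGAAA. All 5 held it, against 1131 of 32851 promoters (3.44%), or 1079 of 27025 genes (3.99%), and against 9 of the 25 genes (36%) with a promoter in a list of other interferon-stimulated genes. The windows below are 80 bases long, 5′ to 3′ on the gene's strand, with the core or its reverse complement in capitals. In Bst2, 2 cores overlap.
Bst2, chr8:71537555-71537634, minus strand: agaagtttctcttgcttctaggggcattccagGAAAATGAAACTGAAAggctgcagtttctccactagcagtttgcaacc
Trim12a, chr7:104315476-104315555, minus strand: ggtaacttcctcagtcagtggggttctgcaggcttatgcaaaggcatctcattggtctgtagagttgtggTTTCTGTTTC
Trim30a, chr7:104465185-104465264, minus strand: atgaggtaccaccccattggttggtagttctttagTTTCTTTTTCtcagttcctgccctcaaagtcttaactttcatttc
Trim30d, chr7:104507846-104507925, minus strand: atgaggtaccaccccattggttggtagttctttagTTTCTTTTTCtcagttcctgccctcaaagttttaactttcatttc
Trim34a, chr7:104244397-104244476, plus strand: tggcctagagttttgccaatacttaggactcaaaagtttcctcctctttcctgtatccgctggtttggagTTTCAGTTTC

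The first base of the core lay 130 and 124 bases before the start in Bst2 (positions -130 and -124), at -36 in Trim30a, at -41 in Trim30d, and at 11 after the start in Trim12a and in Trim34a. A second annotated start of Trim30a also had the core, with its first base at 3. The whole promoters of Trim30a and Trim30d were identical at 276 of 295 aligned bases (93.6%), and the windows shown hold the same core. The gamma-activated site core TTCNNNGAA, searched in the same way, was in 1 of the 5 promoters, against 8.30% of all promoters and 9.55% of genes. A match describes letters in the annotated C57BL/6J genome. The other strains' promoters were not read here.

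Expression values are on the log2 scale, as made by robust multi-array average (RMA), so a difference of 1 is a doubling or halving of signal. Each array's own 40th percentile, taken across its complete set of probe sets, serves as a floor, and values beneath it are termed dim. These percentiles averaged 6.62 in NZO, 6.63 in C3H, 6.63 in 129P2 and 6.57 in B6. For a gene that stayed dim in every animal of 1 strain, the brighter strain's mean minus the dim strain's mean percentile is given as a bound, and the fitted difference beside it rests on dim values. The interquartile range of an array's values, its spread, ran from 2.17 to 2.50. Of the 7 genes, Bst2, Trim30a and Trim34a were above the percentile on all 20 arrays and Mx2 on 14. Mx1 was above it on the 5 NZO arrays only, and Trim12a and Trim30d on the 5 B6 arrays only. These 3 passed the filter on dim genes, which asks for 5 arrays above the percentile, through the strain where they are high, so that they had to differ. In bulk liver, fewer cells of a type and less RNA per cell cannot be told apart.

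**Figure D1:**
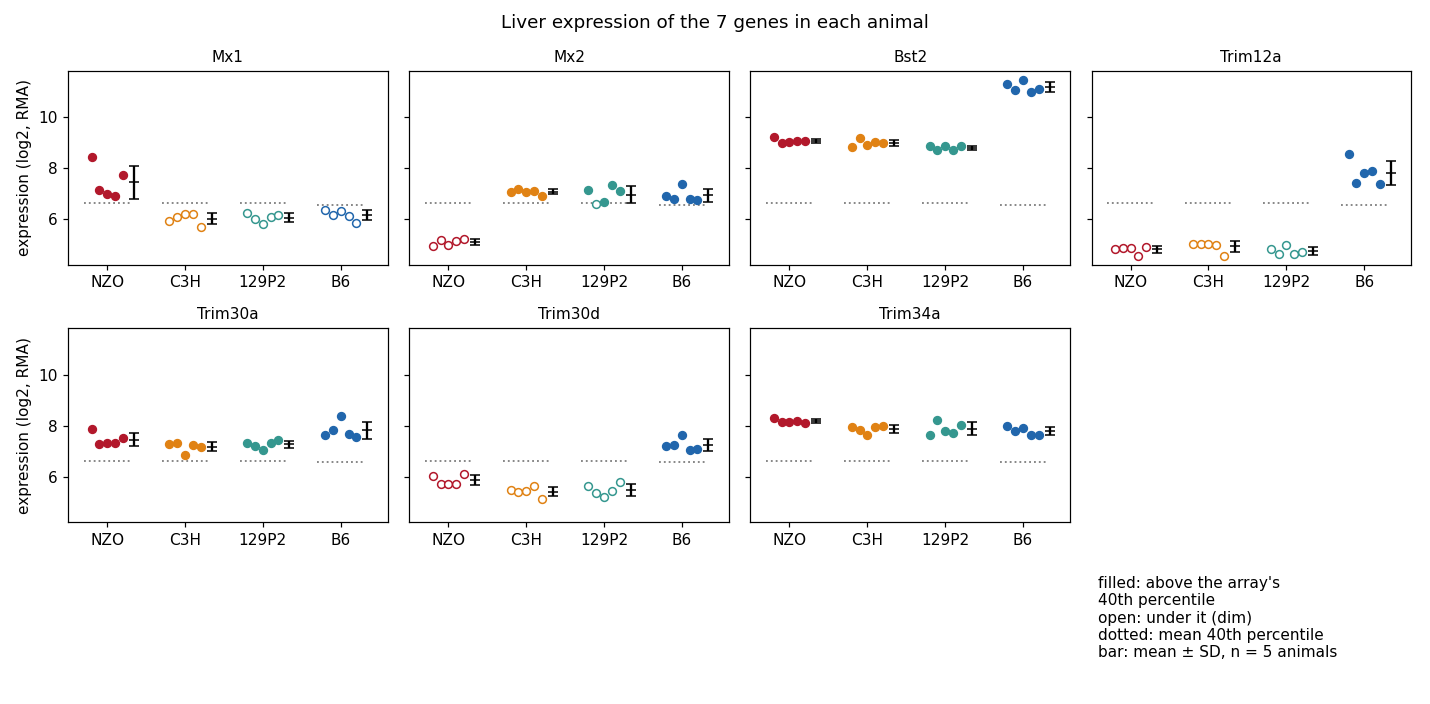
Expression of the 7 genes (log2, RMA) in each animal of NZO, C3H, 129P2 and B6, with open circles for dim values, dotted lines at the mean 40th percentile of the strain's arrays, and bars for the mean ± SD of 5 animals. Mx1 lies above the line only in NZO and Mx2 under it in all NZO animals, whereas Bst2, Trim12a and Trim30d stand apart in B6.

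Mx1 and Mx2, the neighbouring pair on chromosome 16, ran in opposite directions in NZO liver. Mx1 was 8.43, 7.13, 7.002, 6.90 and 7.75 in the 5 NZO animals (mean 7.44 ± 0.64, SD, n = 5). Its mean was 6.03 ± 0.21 in C3H, 6.07 ± 0.16 in 129P2 and 6.17 ± 0.21 in B6, and it was dim on all 15 arrays of these strains, whose highest value was 6.38. Every NZO animal lay above every other animal, and NZO replicate 1 was the highest of all. NZO was higher than C3H by at least 0.81 (1.75-fold), than 129P2 by at least 0.81 (1.75-fold) and than B6 by at least 0.87 (1.82-fold). The fitted differences were 1.41, 1.37 and 1.27 (SE 0.20 each). Because the other strains were all dim, no order can be read among them.

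Mx2 was 4.98, 5.21, 5.01, 5.15 and 5.22 in NZO, dim on all 5 arrays (mean 5.11 ± 0.11, SD, n = 5). It was 7.07, 7.20, 7.07, 7.10 and 6.92 in C3H (mean 7.07 ± 0.10), 7.14, 6.58, 6.67, 7.33 and 7.11 in 129P2 (mean 6.97 ± 0.32, 1 of them dim), and 6.91, 6.78, 7.40, 6.81 and 6.77 in B6 (mean 6.93 ± 0.27). No NZO animal reached the range of another strain. NZO was lower than C3H by at least 0.45 (1.37-fold), than 129P2 by at least 0.34 (1.27-fold) and than B6 by at least 0.31 (1.24-fold), with fitted differences of -1.96, -1.85 and -1.82 (SE 0.13 each). The other 3 strains overlapped in Mx2, with differences of 0.11 for C3H minus 129P2 (95% interval -0.16 to 0.37), 0.14 for C3H minus B6 (-0.13 to 0.41) and 0.03 for 129P2 minus B6 (-0.24 to 0.30). In the C57BL/6J annotation of RefSeq both Mx1 and Mx2 are classed as transcribed pseudogenes. Mx1 and Mx2 are close copies that a probe can also bind, and sequence differences between strains under the probes were not tested, so the identity of the transcript behind each signal is uncertain. The same holds for the Trim genes below. Markers of liver endothelial cells were also lower in NZO, in 4 of 7 against C3H, 4 of 7 against 129P2 and 5 of 7 against B6 by limma. Their mean level was 8.49 ± 0.20 in NZO, 8.89 ± 0.17 in C3H, 8.86 ± 0.16 in 129P2 and 8.97 ± 0.20 in B6 (log2, SD, n = 5). Markers of stellate cells were lower too, in 2 of 6, 3 of 6 and 3 of 6, with means of 8.48 ± 0.12 in NZO, 8.76 ± 0.12 in C3H, 8.87 ± 0.09 in 129P2 and 8.90 ± 0.30 in B6. In these comparisons 6.60%, 8.90% and 10.3% of all tested genes were called in either direction. Not every marker followed. The endothelial Lyve1 had 8.11 in NZO, 8.13 in C3H, 7.80 in 129P2 and 8.49 in B6. The stellate Col1a1 had 8.45, 8.44, 8.41 and 8.68 in the same order. The part of these cells in the Mx2 result was not tested.

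Of the 12 tested genes nearest to the Mx pair, 6 on each side, 4 passed limma's threshold in at least 1 comparison. Single comparisons called 5.03% to 10.3% of all tested genes. The share called in at least 1 comparison was not computed, so nothing is read from this count. Bace2, a membrane protease next to the pair, was lower in NZO by limma than in C3H (-0.52), 129P2 (-0.53) and B6 (-0.62; SE 0.07 each), with adjusted p of 3.64e-05, 3.32e-05 and 2.91e-06. Tmprss2, the serine protease on the other side, which can activate influenza haemagglutinin, was lower in NZO than in C3H (-0.43, SE 0.12, limma adjusted p = 0.0270) and 129P2 (-0.61, adjusted p = 0.00130) but differed by 0.11 from B6 (adjusted p = 0.564). Tmprss2 was also higher than in B6 by limma in C3H (0.54, adjusted p = 0.00460) and in 129P2 (0.72, adjusted p = 0.000280), strains that overlapped with B6 in Mx2. A relation of Tmprss2 to the Mx genes was not tested. The other called neighbours were C2cd2 (-0.48 for NZO minus 129P2) and B230307C23Rik (-0.31 for NZO minus B6).

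Bst2, on chromosome 8, was set apart in B6. Its level was 9.20, 8.99, 9.01, 9.07 and 9.06 in NZO (mean 9.07 ± 0.08, SD, n = 5), 8.84, 9.17, 8.90, 9.04 and 8.96 in C3H (mean 8.98 ± 0.13), 8.85, 8.72, 8.88, 8.71 and 8.85 in 129P2 (mean 8.80 ± 0.08), and 11.26, 11.04, 11.45, 10.96 and 11.07 in B6 (mean 11.16 ± 0.20). The lowest B6 animal stood far above the highest animal of any other strain, on arrays where no Bst2 value was dim. By limma Bst2 was lower than in B6 by 4.26-fold in NZO (-2.09, SE 0.09, adjusted p = 2.23e-13), 4.52-fold in C3H (-2.18, adjusted p = 9.99e-14) and 5.12-fold in 129P2 (-2.36, adjusted p = 1.78e-14). Among the other strains the order of means was NZO, C3H, 129P2. NZO minus 129P2 was 0.27 (95% interval 0.08 to 0.45) with no overlap of values, but did not pass limma's threshold (adjusted p = 0.0686). It passed in 3 alternatives, with further quantile normalization (0.0295), with array spread as a covariate (0.0328) and without B6 replicate 3 (0.0368). NZO minus C3H was 0.09 (-0.10 to 0.27, adjusted p = 0.760) and C3H minus 129P2 was 0.18 (-0.01 to 0.37, adjusted p = 0.330).

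Of the 12 tested genes nearest to Bst2, 3 passed the threshold, each in all 3 comparisons with B6. Of all tested genes, 10.3% passed in NZO minus B6, 8.05% in C3H minus B6 and 6.19% in 129P2 minus B6. With 12 genes, nothing is read from this count. Mvb12a, an ESCRT-I subunit that lies next to Bst2, was higher by limma in NZO (0.44, SE 0.09, adjusted p = 0.00319), C3H (0.49, adjusted p = 0.00165) and 129P2 (0.39, adjusted p = 0.0112) than in B6, opposite to Bst2. Pgls, an enzyme of the pentose phosphate pathway, differed from B6 by -0.31 in NZO, -0.25 in C3H and -0.28 in 129P2, and Colgalt1, a collagen galactosyltransferase, by -0.31, -0.44 and -0.34. Bst2 also marks plasmacytoid dendritic cells in mice. Siglech, a defining marker of those cells, had a mean of 6.92 in NZO, 6.85 in C3H, 7.03 in 129P2 and 7.02 in B6. Of the 3 tested markers of those cells other than Bst2, 1 passed, Tcf4, a transcription factor of these cells, with -0.36 in NZO, -0.36 in C3H and -0.25 in 129P2 against B6 (SE 0.07 each). The mean level of the 3 ranged from 7.52 to 7.79 in NZO, 7.61 to 7.73 in C3H, 7.65 to 7.86 in 129P2 and 7.77 to 8.14 in B6. The part of these cells in the Bst2 result was not tested.

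**Figure D2:**
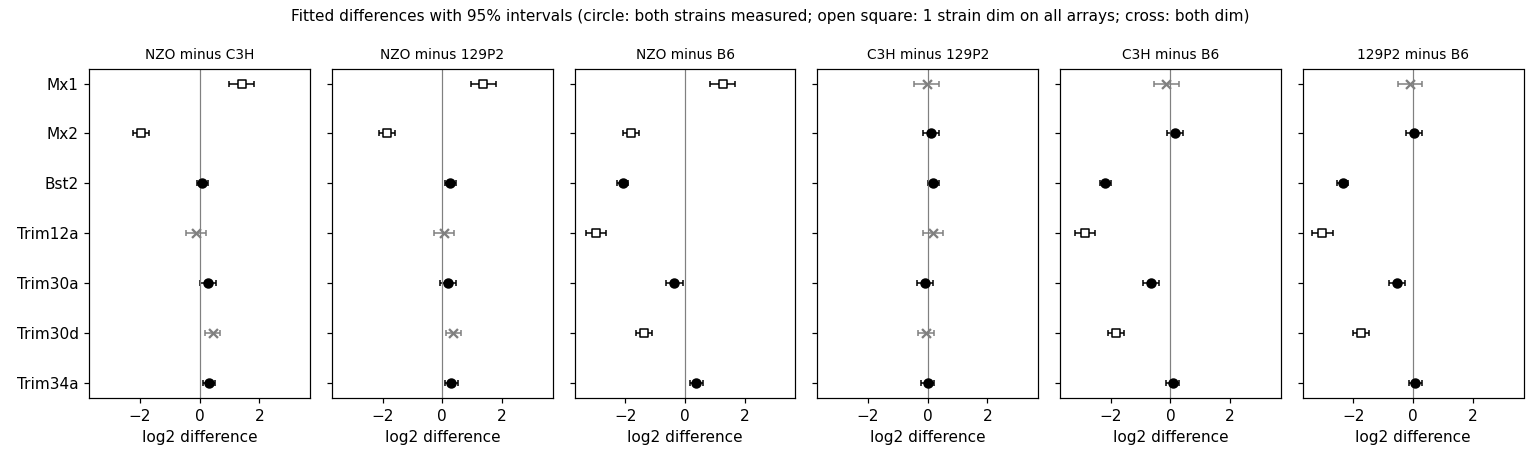
Fitted log2 differences of the 7 genes in the 6 strain comparisons (first strain minus second), with 95% intervals; filled circles mark comparisons with both strains measured, open squares those with 1 strain dim on all arrays, and grey crosses those with both dim. The 3 comparisons with B6 share low values of Bst2, Trim12a and Trim30d, and C3H minus 129P2 holds no difference past the threshold.

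The Trim genes lie together on chromosome 7, and 3 of the 4 were highest in B6. Trim12a was 4.86, 4.89, 4.89, 4.58 and 4.93 in NZO (mean 4.83 ± 0.14, SD, n = 5), and averaged 4.95 ± 0.20 in C3H and 4.78 ± 0.14 in 129P2, dim on all arrays of these strains. It was 8.56, 7.41, 7.83, 7.87 and 7.39 in B6 (mean 7.81 ± 0.47). All B6 values were above the percentile, and B6 replicate 1 was the highest. Relative to B6, Trim12a was lower by at least 1.19 in NZO (2.28-fold), 1.18 in C3H (2.27-fold) and 1.18 in 129P2 (2.27-fold), and the fitted differences were -2.98, -2.86 and -3.04 (SE 0.16 each). No order can be read among NZO, C3H and 129P2.

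Trim12c, the neighbouring copy of Trim12a and the only tested gene between the Trim genes described here, did not follow it. Its level was 8.77, 8.00, 7.93, 8.07 and 7.84 in NZO (mean 8.12 ± 0.37, SD, n = 5), against 7.11 ± 0.28 in C3H, 6.66 ± 0.24 in 129P2 and 6.97 ± 0.17 in B6. By limma Trim12c was higher in NZO than in C3H by 1.01 (adjusted p = 0.000105), than in 129P2 by 1.46 (adjusted p = 7.65e-07) and than in B6 by 1.16 (adjusted p = 1.92e-05; SE 0.15 each). So where Trim12a was seen in B6 alone, Trim12c was highest in NZO. A probe set listed for both Trim5 and Trim12c had means of 7.94 in NZO, 6.82 in C3H, 6.71 in 129P2 and 7.09 in B6, and one listed for Trim5, Trim12c and Trim12a had 7.49, 6.87, 6.88 and 7.64. The probe set shared by all 3 symbols was thus high in both NZO and B6. The one that leaves out Trim12a was highest in NZO (7.71 to 8.33). In it B6 (7.02 to 7.21) also lay above every animal of C3H (highest 6.98) and 129P2 (highest 6.95).

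**Figure D3:**
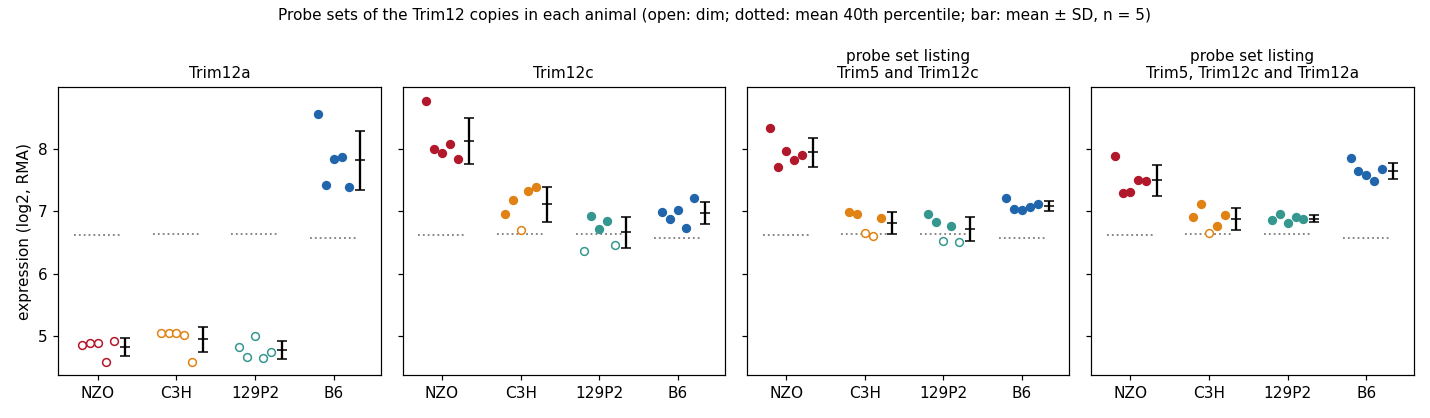
Levels (log2, RMA) of 4 probe sets of the Trim12 copies in each animal, with open circles for dim values, dotted lines at the mean 40th percentile, and bars for the mean ± SD of 5 animals. Trim12a is above the percentile in B6 only, Trim12c is highest in NZO, and the probe set that lists Trim5, Trim12c and Trim12a is higher in NZO and B6 than in C3H and 129P2.

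Trim30d was dim on all arrays outside B6. Its level was 6.05, 5.75, 5.74, 5.74 and 6.12 in NZO (mean 5.88 ± 0.19, SD, n = 5), with dim means of 5.44 ± 0.19 in C3H and 5.51 ± 0.22 in 129P2 as well. It was 7.22, 7.27, 7.63, 7.07 and 7.09 in B6 (mean 7.26 ± 0.22), and the groups did not overlap with B6. Relative to B6, Trim30d was lower by at least 0.63 in NZO (1.55-fold), 0.62 in C3H (1.54-fold) and 0.63 in 129P2 (1.54-fold), and the fitted differences were -1.38, -1.82 and -1.75 (SE 0.13 each). No order can be read among NZO, C3H and 129P2, which were all dim.

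Trim30a, whose promoter is nearly that of Trim30d, was above the percentile in every animal and differed less. It was 7.86, 7.30, 7.31, 7.34 and 7.52 in NZO (mean 7.47 ± 0.24, SD, n = 5), 7.27, 7.34, 6.88, 7.24 and 7.19 in C3H (mean 7.19 ± 0.18), 7.33, 7.20, 7.08, 7.32 and 7.45 in 129P2 (mean 7.28 ± 0.14), and 7.64, 7.84, 8.38, 7.68 and 7.57 in B6 (mean 7.82 ± 0.33). All B6 animals lay above all C3H and 129P2 animals and overlapped with NZO. By limma Trim30a was lower than in B6 by 1.55-fold in C3H (-0.64, SE 0.13, adjusted p = 0.00286) and by 1.46-fold in 129P2 (-0.55, adjusted p = 0.0109). In 129P2 the call was not made when array spread entered the fit (0.0905). NZO minus B6 was -0.36 (95% interval -0.63 to -0.08, adjusted p = 0.0883) and passed without NZO replicate 1 (0.0206). NZO, C3H and 129P2 did not differ past the threshold, the largest difference being 0.28 for NZO minus C3H (0.01 to 0.55, adjusted p = 0.284).

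Trim34a was the only one of the 4 Trim genes that was not highest in B6. It was 8.32, 8.16, 8.16, 8.21 and 8.11 in NZO (mean 8.19 ± 0.08, SD, n = 5), 7.95, 7.85, 7.63, 7.97 and 8.00 in C3H (mean 7.88 ± 0.15), 7.63, 8.24, 7.81, 7.71 and 8.04 in 129P2 (mean 7.89 ± 0.25), and 7.99, 7.80, 7.92, 7.66 and 7.66 in B6 (mean 7.81 ± 0.15). NZO lay above all C3H and B6 animals and overlapped with 129P2 through its replicate 2. By limma Trim34a was 1.30-fold higher in NZO than in B6 (0.38, SE 0.10, adjusted p = 0.0154), a call lost without B6 replicate 4 (0.0549). NZO minus C3H was 0.31 (95% interval 0.10 to 0.52, adjusted p = 0.0726) and NZO minus 129P2 was 0.30 (0.10 to 0.51, adjusted p = 0.0647). Both passed without 129P2 replicate 2 (0.0309 and 0.00854). C3H, 129P2 and B6 differed from each other by at most 0.08 in size, with all intervals between -0.21 and 0.29.

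Other genes of the Trim locus were quieter. Trim6 was dim on all 20 arrays, as were the probe sets of Trim30e-ps1 and of Trim30b, which is listed together with Gm38525. Of the 12 tested genes nearest to the outer Trim genes, 3 passed, each in 1 comparison, Usp17lc (0.46 for 129P2 minus B6), Hbb-bh2 (0.30 for NZO minus B6) and Fam160a2 (-0.23 for NZO minus B6). Of all tested genes, 10.3% passed in NZO minus B6 and 6.19% in 129P2 minus B6. Usp17lc and Hbb-bh2 each had dim values in B6.

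Counted over comparisons, the 7 genes with a call by limma's adjusted p of 0.05 numbered 3 in NZO minus C3H, where 6.60% of all 14190 tested genes were called and 1 of the 3, Trim30d, was dim in both strains. They numbered 2 in NZO minus 129P2 (8.90% of all tested genes), 6 in NZO minus B6 (10.3%), 0 in C3H minus 129P2 (5.03%), 4 in C3H minus B6 (8.05%) and 4 in 129P2 minus B6 (6.19%). In C3H minus 129P2, 0 of the 7 also had an unadjusted p under 0.05 by limma. The 4 genes in C3H minus B6 and in 129P2 minus B6 were Bst2, Trim12a, Trim30a and Trim30d. Nothing is read from these counts, since Mx1, Mx2 and Trim12a were known to differ and Mx1, Trim12a and Trim30d were tested only because of the strain where they are high. These comparisons also share animals, B6 in 3 of them and NZO in 3.

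The other Trim genes were called at shares between 2.38% and 11.9%, above the share of all tested genes in 2 of 6 comparisons. Of 55 measured, 42 were tested, and limma called 2 in NZO minus C3H (4.76%, against 6.60% of all tested genes), 3 in NZO minus 129P2 (7.14%, against 8.90%), 4 in NZO minus B6 (9.52%, against 10.3%), 1 in C3H minus 129P2 (2.38%, against 5.03%), 5 in C3H minus B6 (11.9%, against 8.05%) and 3 in 129P2 minus B6 (7.14%, against 6.19%). The median difference of the 42 lay between 0.02 and 0.06 in the 6 comparisons. Besides Trim12c, Trim44, which stabilizes the signalling adaptor MAVS, was higher in NZO than in C3H (0.71), 129P2 (0.53) and B6 (0.36; SE 0.10 each). Trim68 was higher than in B6 in NZO (0.26), C3H (0.40) and 129P2 (0.46; SE 0.07 each), opposite to Trim30d. Trim25, the ligase that activates RIG-I, was lower in 129P2 than in B6 (-0.45, SE 0.12), whereas Trim58 (0.30 for NZO minus B6) and Trim7 (-0.29 for NZO minus 129P2) each passed in 1 comparison.

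Interferon-stimulated genes as a list were highest in NZO and B6 and lower in C3H and 129P2. Like the other lists here, this list was chosen with earlier results of these data known. Its counts are therefore not independent evidence. The 34 tested genes of this list of 46, none of them among the 7, had a mean level of 8.72 ± 0.15 in NZO, 8.27 ± 0.10 in C3H, 8.10 ± 0.17 in 129P2 and 8.70 ± 0.16 in B6 (log2, SD, n = 5 animals). By limma 16 were higher and 0 lower in NZO than in C3H, and 28 higher and 0 lower in NZO than in 129P2, but set against B6 only Psmb8 was higher in NZO (0.47, SE 0.11) and 0 were lower. At an unadjusted p of 0.05, NZO minus B6 held 6 higher and 4 lower genes of the list, and NZO minus C3H and NZO minus 129P2 held 0 lower ones. The list's medians of the differences were 0.42, 0.58 and 0.00, where the medians over all tested genes lay between -0.0033 and 0.0093. In C3H minus B6, 19 were lower and 0 higher (median -0.43), and in 129P2 minus B6, 26 were lower and 0 higher (median -0.58). In C3H minus 129P2, 4 were higher and 0 lower (median 0.15), 11.8% of the list beside 5.03% of all tested genes. At an unadjusted p of 0.05 by limma, C3H minus 129P2 held 10 higher and 1 lower. The called share of the list was 47.1% in NZO minus C3H, 82.4% in NZO minus 129P2, 2.94% in NZO minus B6, 55.9% in C3H minus B6 and 76.5% in 129P2 minus B6, beside 6.60%, 8.90%, 10.3%, 8.05% and 6.19% of all tested genes. In the mean of this list NZO and B6 lay within their SDs of each other.

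Ifi27, an interferon-induced protein, shows the list's pattern with 0.95 in NZO minus C3H, 1.62 in NZO minus 129P2, 0.37 in NZO minus B6, -0.58 in C3H minus B6 and -1.25 in 129P2 minus B6 (SE 0.14 each), of which the NZO minus B6 value did not pass. Ifit1, which binds viral RNA caps, had 0.85, 1.08, -0.07, -0.91 and -1.14 in the same comparisons (SE 0.17 each), again with NZO minus B6 short of the threshold. The transcription factor Irf7, which drives type I interferon genes, had 1.15, 1.52, 0.18, -0.97 and -1.34 (SE 0.20 each). Of the 18 tested interferon receptors and signalling genes, Irf7 among them, limma called 1 in NZO minus C3H (5.56%, against 6.60% of all tested genes), 3 in NZO minus 129P2 (16.7%, against 8.90%), 1 in NZO minus B6 (5.56%, against 10.3%), 1 in C3H minus B6 (5.56%, against 8.05%) and 3 in 129P2 minus B6 (16.7%, against 6.19%).

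Other restriction factors followed the order of the interferon-stimulated genes. Of 18 tested, limma called 6 as higher in NZO than in C3H, 7 as higher in NZO than in 129P2, 1 as higher in NZO than in B6, 6 as lower in C3H than in B6 and 7 as lower in 129P2 than in B6, with 0 the other way. These were 33.3%, 38.9%, 5.56%, 33.3% and 38.9% of the list, beside 6.60%, 8.90%, 10.3%, 8.05% and 6.19% of all tested genes. Rsad2 (viperin), which makes a chain-terminating nucleotide, had 0.84 in NZO minus C3H, 0.99 in NZO minus 129P2 and 0.11 in NZO minus B6 (SE 0.16 each), the last not past the threshold. Slfn5 was the one above B6 as well, with 0.89, 0.99 and 0.41 (SE 0.12 each). Among 13 sensors of nucleic acids, 4 (30.8%, against 6.60% of all tested genes) were called as higher in NZO than in C3H. Against 129P2, 5 (38.5%, against 8.90%) were higher in NZO, and 0 (against 10.3%) were called in NZO minus B6 (0 also at an unadjusted p of 0.05). As lower than in B6, 3 (23.1%, against 8.05%) were called in C3H and 4 (30.8%, against 6.19%) in 129P2. Ifih1 (MDA5), called against C3H and 129P2, had 0.53, 0.73 and 0.13 for NZO minus C3H, 129P2 and B6 (SE 0.13 each).

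Within strains the animals also varied, and this variation is separate from the strain means described so far. For each of the 20 animals, the deviation from its strain's mean was set against the same deviation of the mean of the 34 interferon-stimulated genes, with labels permuted within strains (100000 permutations, two-sided) and Benjamini-Hochberg adjustment over 7 relations. Bst2 followed the list, with Pearson's r = 0.73 (permutation p = 0.00055, adjusted 0.00385) and Spearman's rho = 0.68 (permutation p = 0.00241, adjusted 0.0119). Trim30a did too, with r = 0.75 (permutation p = 0.00211, adjusted 0.00738) and rho = 0.68 (permutation p = 0.0034, adjusted 0.0119). Without the 2 animals farthest from the list's median deviation, B6 replicate 3 and 129P2 replicate 2, r was 0.66 for Bst2 and 0.74 for Trim30a, and with array spread removed it was 0.63 and 0.64.

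Mx1 (r = 0.52), Mx2 (r = 0.58) and Trim30d (r = 0.55) passed by Pearson's r (permutation p = 0.0212, 0.0281 and 0.0276, adjusted 0.0393 each) but not by Spearman's rho (rho = 0.50, 0.47 and 0.49, permutation p = 0.0364, 0.0544 and 0.0450, adjusted 0.0762 each). With array spread removed, r was 0.48 for Mx1, 0.65 for Mx2 and 0.65 for Trim30d. For Mx2, r was 0.26 without those 2 animals, so that its relation rests on them, and Trim30d had 0.41 and Mx1 0.61. Those 2 did not include NZO replicate 1, which had the largest Mx1 deviation (0.99, with 0.24 in the list). The relation of Mx1 was not recomputed without NZO replicate 1. Mx1 was above the percentile on the 5 NZO arrays only, and Trim12a and Trim30d on the 5 B6 arrays only. Most of their deviations are thus differences between dim values. For Mx1, Trim12a and Trim30d the relation to the list can therefore not be decided here, whether it passed or not. Mx2 was above the percentile on 14 arrays, none of them in NZO. Trim12a (r = 0.14, rho = 0.04, permutation p = 0.630 and 0.874, adjusted 0.735 and 0.874) and Trim34a (r = 0.07, rho = 0.26, permutation p = 0.800 and 0.312, adjusted 0.800 and 0.364) did not follow the list past the threshold, with 0.11 and 0.39 without the 2 animals.

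Among single animals, B6 replicate 3 deviated from its strain mean by 0.46 in Mx2, 0.30 in Bst2, 0.55 in Trim30a, 0.37 in Trim30d and 0.27 in the 34-gene list, but by 0.02 in Trim12a. NZO replicate 1 deviated by 0.99 in Mx1, 0.39 in Trim30a and 0.24 in the list. The mean of 8 Kupffer cell markers was highest within the strain in B6 replicate 3 (deviation 0.33) and in NZO replicate 1 (0.45), and B6 replicate 3 was also the highest B6 animal in the stellate (0.35) and endothelial (0.26) markers. The largest Kupffer deviation, 0.67 in 129P2 replicate 5, went with 0.07 in the 34-gene list and 0.17 in Trim30a. C3H replicate 4 was its strain's highest in both means (0.13 Kupffer, 0.10 list). Lowest in both were NZO replicate 2 (-0.28 and -0.16) and 129P2 replicate 2 (-0.34 and -0.28). The highest 129P2 animal and the lowest C3H and B6 animals differed between the Kupffer markers and the list. Over all animals the Kupffer marker mean ranged from 8.43 to 9.16 in NZO, 8.39 to 8.68 in C3H, 8.53 to 9.55 in 129P2 and 8.74 to 9.26 in B6. The part of these cells in the relations was not tested.

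**Figure D4:**
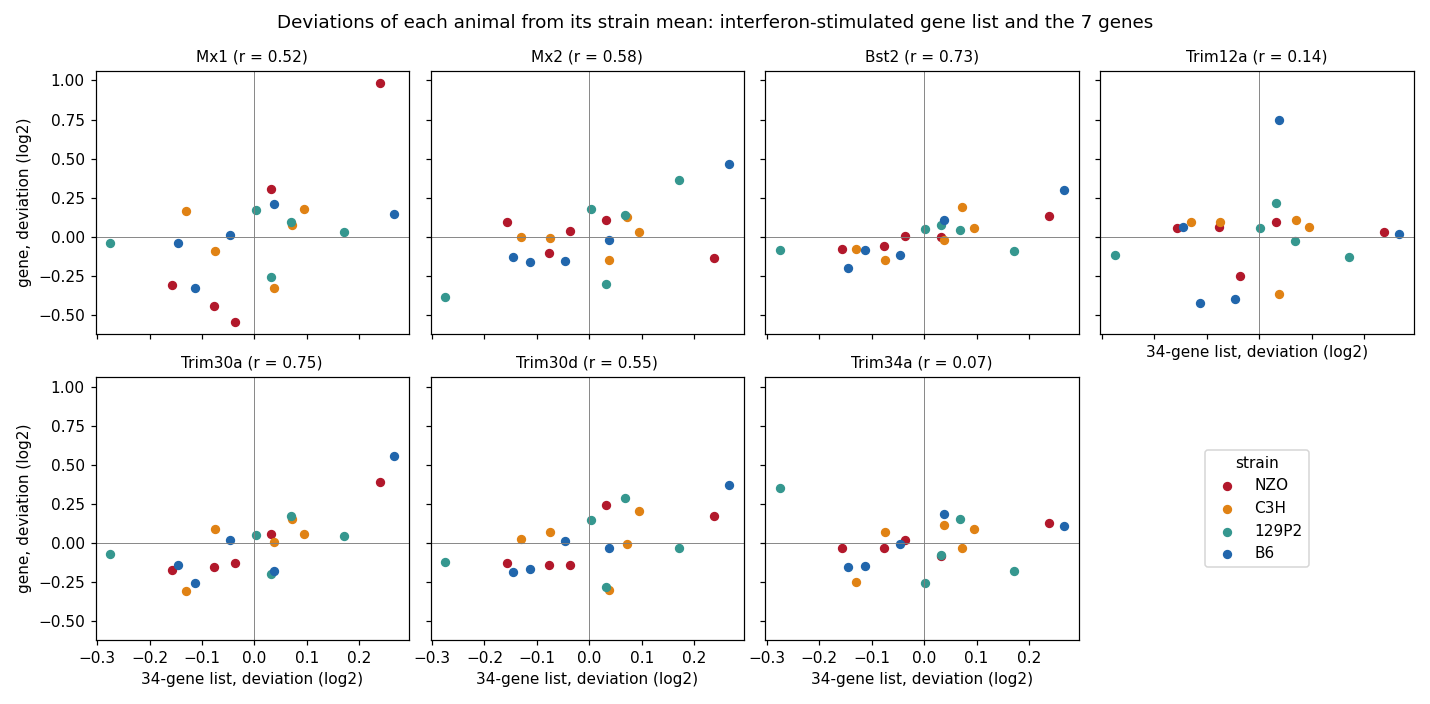
Deviation of each animal from its strain mean (log2) in the mean of 34 interferon-stimulated genes (horizontal) and in each of the 7 genes (vertical), coloured by strain, with Pearson's r over 20 animals. Points rise from lower left to upper right for Bst2 and Trim30a and show no such slope for Trim12a and Trim34a. Most values of Mx1, Trim12a and Trim30d are dim.

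Across all 20 arrays, strain means included, the genes most like each of the 7 in Pearson's r are given as a description, since the arrays share their strains and the values carry no p. Bst2 and Trim12a were most like Pttg1, the securin of cell division (r = 0.98 each), and each other (0.98), and Trim30d had 0.96 with Bst2. Adh6-ps1, an alcohol dehydrogenase pseudogene, was among the 3 most alike for both Bst2 and Trim12a (0.95 each), and the copper chaperone Atox1 for Bst2 (0.96) and Trim30d (0.93). Arsb, a lysosomal sulfatase, led for Trim30d (0.93), and Clec2h was the other for Trim12a (0.96). Mx1 was most like Slc34a2, a phosphate transporter (0.92), Akr1c18 (0.89) and Zfp949 (0.88), and Mx2 most like Cyp39a1 (0.93), Akr1c12 (0.92) and Nudt19 (0.92). Mx1 and Mx2 had r = -0.83 with each other.

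Trim30a differed from the others here, in that the genes most like it were the interferon-induced Sp100 (0.90) and Gbp3 (0.90) and the leukocyte antigen Cd52 (0.89). For Trim34a no gene came as close, with Cldn18 (0.79), Ctsz (0.76) and Car2 (0.75) at the top.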

How the data were processed

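Liver RNA of 20 animals was measured on 1 whole-transcript array each. The deposited log2 values were made by the authors with Affymetrix Expression Console by RMA, per the submitters' processing notes. Versions and genome build are not given in the sources used here. The number of arrays limits the precision, and nothing beyond the labels says how animals were bred.

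Groups come from the strain labels, and replicate numbers follow accession order and only name animals. Of 35556 probe sets, 21789 had 1 symbol in the platform annotation, 1621 several and 12146 were unnamed here. Of 19938 genes, 19856 were matched to RefSeq by Entrez ID, with 0 symbols changed. Genes entered the tests (14190 of them) if 5 or more arrays exceeded their own 40th percentile.

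In R 4.3.3, limma 3.58.1 (files read with data.table, version 1.17.8) fitted 1 mean per strain over all 20 arrays with an intensity trend (16 residual, 6.37 prior degrees of freedom), and p-values were adjusted by Benjamini-Hochberg across all genes tested, at a threshold of 0.05. The fit was tested on simulated data. Python 3.11.15, pandas 2.3.3, numpy 2.4.6 and matplotlib 3.10.9 were used for the rest.

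Members and lists were chosen with earlier results of these data known. Named genes were the 7 members, per list up to 4 called in an NZO comparison and 2 more called in another, by size, called neighbours among the 6 nearest tested genes on each side, and the 3 genes most like each member, leaving out predicted genes, clones and small RNAs. Siglech, Tcf4, albumin, Fabp1, Lyve1, Col1a1, Trim6, Trim30b and Trim30e-ps1 were added as markers or copies.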

Additional observations from a re-analysis of the deposited data

Results flagged for a closer look

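In 28 sets of 5 animals (7 genes in 4 strains), 3 had an animal whose gap to the nearest of the others was over 0.71 of the set's range, Dixon's critical value, where chance gives about 1.4. Mx2 in B6 replicate 3 was 7.40, above the other B6 animals at 6.77 to 6.91. Trim12a in NZO replicate 4 was 4.58, under the other NZO animals at 4.86 to 4.93, and Trim12a in C3H replicate 5 was 4.58, under the other C3H animals at 5.01 to 5.06. Both Trim12a values are dim, as are those of all other animals of these strains.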

How the results depend on the processing

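Of 354 recomputed differences of the 7 genes under settings other than an animal left out, 346 kept their direction and side of the threshold, 3 lost the call, 5 gained it and 0 reversed; with each animal left out in turn, 827 of 840 kept both, 6 lost the call, 7 gained it and 0 reversed. With a filter at the 60th percentile, Mx1, Mx2, Trim12a and Trim30d were no longer tested, and the called genes numbered 0 in NZO minus C3H, 0 in NZO minus 129P2, and 2 each in NZO minus B6, C3H minus B6 and 129P2 minus B6. Further quantile normalization gave 4 in NZO minus 129P2. With 1 animal left out, counts ranged from 2 to 4 in NZO minus C3H, 2 to 4 in NZO minus 129P2, 5 to 7 in NZO minus B6, 0 to 0 in C3H minus 129P2, and 4 to 4 in both other comparisons; 4 in NZO minus 129P2 came without B6 replicate 3. Trim30d, dim in these strains, lost its call in NZO minus C3H in 7 settings and gained one in NZO minus 129P2 in 3. Trim34a passed in NZO minus C3H in 2 settings (0.0309 and 0.0377) and in NZO minus 129P2 in 3 (0.00742 to 0.0468). The cause was not tested. The fitted difference of Mx1 in NZO ranged from 1.02 to 1.54 over all settings and comparisons, the lowest without NZO replicate 1. No paired analysis was made, since each strain's animals were different mice and nothing in the labels pairs them across strains. Dim signals limit Mx1, Mx2, Trim12a and Trim30d to bounds.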
